A study of Mus musculus with 3 samples.

Results

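*Lilr4b* and *Lilrb4a* are neighbouring mouse genes for cell-surface receptors of the leukocyte immunoglobulin-like receptor family, and they are 2 of the 18029 genes counted in donor T cells after allogeneic bone marrow transplantation (BMT). They were chosen by their pool sums, which earlier results of the same data had shown to be far lower at 50 mg/kg of cyclosporine A (CSA) than with saline or 5 mg/kg. Those contrasts are therefore given as descriptions with no p value, and tests are given for other comparisons. Comparisons of 5 mg/kg with saline, and of the lineages, use pool sums that also entered the choice, so they are not free of it. B6D2F1 recipients of all 3 groups received B6 bone marrow, B6 T cells and a small number of TEa T cells, which carry a transgenic T cell receptor (TCR) for a recipient alloantigen. From day 0 to day 6 they had daily saline or CSA, the latter at a dose of either 5 or 50 mg/kg. Spleens of 6 mice per group were collected on day 7, and 2 mice each made up 1 of 3 pools per group. Sorted donor CD4+ and CD8+ T cells of all 3 pools went through a single 10x 5′ capture per group, so a capture and its treatment cannot be told apart. All groups carried the transplant, no untransplanted T cells were analysed here, and the age of the mice is not given in the sources used here.

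*Lilrb4a* encodes gp49B, the mouse counterpart of the human inhibitory receptor LILRB4 (ILT3). Receptors of this kind carry immunoreceptor tyrosine-based inhibitory motifs (ITIMs) in the cytoplasmic tail, which recruit phosphatases such as SHP-1 and SHP-2 when phosphorylated and damp signalling by activating receptors. *Lilr4b* encodes the related receptor gp49A, which has been described without such motifs. Both were first known from mast cells and myeloid cells and are also made by activated T and NK cells. CSA binds cyclophilin and blocks calcineurin, the phosphatase that brings NFAT factors into the nucleus after TCR stimulation.

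In the mm10 build (GENCODE vM21 annotation), both genes lie on the forward strand of chromosome 10. *Lilr4b* (ENSMUSG00000112023) spans chr10:51480632-51486703 and *Lilrb4a* (ENSMUSG00000112148) spans chr10:51490956-51496611, each with 9 exons in its main transcript, and 4252 bases separate them. The coding sequences hold 303 codons for *Lilr4b* and 335 for *Lilrb4a*. An ITIM was searched as serine, isoleucine, valine or leucine, any residue, tyrosine, and, after a further pair of residues, isoleucine, valine or leucine. In the last 100 codons of each gene, where the cytoplasmic tail is encoded, the pattern matched 0 times in *Lilr4b* and 2 times in *Lilrb4a*. The matches are shown because they separate the pair, with the tyrosine codon in capitals; the first starts at codon 298 in exon 8 (chr10:51496021-51496038) and the second at codon 320 in exon 9 (chr10:51496194-51496211), both on the forward strand.
Lilrb4a, codon 298: attgtcTACgcccaggta
Lilrb4a, codon 320: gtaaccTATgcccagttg
By this measure the name inhibitory receptor rests on sequence for *Lilrb4a* alone.

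The genes are near copies of each other in part, and this touches how reads can be assigned. Their first coding bases in exon 1, where a 5′ library places most reads, differ at 0 of 34 positions between chr10:51480720-51480753 (*Lilr4b*) and chr10:51491018-51491051 (*Lilrb4a*), and the shared run is shown for that reason.
Both genes, first coding bases: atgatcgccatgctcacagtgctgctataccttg
Of all 90-base stretches, 12.2% of those in the *Lilr4b* transcript were also in *Lilrb4a*, and 16.5% in the other direction, but 0 of them within the first 300 bases. With 50-base stretches the shares were 20.6% and 27.6%, with 12 stretches in the first 300 bases. A read-through gene, *Gm49339* (chr10:51480612-51496613), shares 6.64% of the exonic bases of *Lilr4b* and 96.0% of those of *Lilrb4a*, and the antisense gene *Gm40645* shares 7.46% of those of *Lilrb4a*. Both had 3 UMIs (unique molecular identifiers, which count molecules) in all pools together. How the counting treated shared bases is not given in the sources used here, so the split of UMIs between these genes is uncertain, and levels are compared below within a gene and not between the genes.

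The promoter of *Lilr4b* is shown because many T cell genes that respond to calcineurin carry NFAT motifs there. The 250 bases before its RefSeq start (GRCm38.p6, forward strand, chr10:51480362-51480611) follow, with matches to the NFAT core GGAAA, searched on both strands, in capitals.
Lilr4b promoter: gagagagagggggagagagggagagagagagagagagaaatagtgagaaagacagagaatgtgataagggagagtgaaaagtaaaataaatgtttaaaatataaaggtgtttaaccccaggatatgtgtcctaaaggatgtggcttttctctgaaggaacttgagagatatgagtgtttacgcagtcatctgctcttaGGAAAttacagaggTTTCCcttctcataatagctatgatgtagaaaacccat
GGAAA was found 1 time on each strand, 52 and 38 bases before the start. Of 32851 promoter windows of the same 250 bases before the start, 55.6% held the motif and 21.4% held it at least as often. The AP-1 motif TGANTCA (both strands) had 0 matches in *Lilr4b*, against 6.75% of windows with a match. No match says only that these letters are not in this window.

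The deposited counts covered 10371 CD4+ and 10833 CD8+ cells in 9 pools, of which 280 CD4+ cells were marked TEa and left out unless stated. A pool held 875 to 1479 CD4+ cells with 3994968 to 7592334 UMIs, and 692 to 1615 CD8+ cells with 4392100 to 11454636 UMIs. The 3 captures shared 218 of their cell barcodes, which were kept as separate cells. Of 8 T cell markers, *Cd8a* was at 0 in CD4+ and *Cd4* at 0 in CD8+ cells and the other 7 were present, among them *Cd8b1* at 148, 92.4 and 23.2 CPM (counts per 1e6 UMIs of the pool) in CD4+ cells with saline, the lower and the higher dose. Of 17 myeloid markers, 16 were counted and none was at 0; their summed level was 375 to 429, 399 to 536 and 352 to 497 CPM in CD4+ cells in the same order, and 413 to 477, 444 to 536 and 422 to 548 in CD8+ cells. Of 9 mast cell and basophil markers, 8 were counted, and their sum was 1.75 to 3.39, 1.06 to 1.95 and 0.395 to 0.458 CPM in CD4+ cells, and 1.67 to 2.00, 0.683 to 1.19 and 0.479 to 0.960 in CD8+ cells, with *Cpa3*, *Ms4a2*, *Fcer1a* and *Gata2* at 0 in CD4+ cells of every group. NK cell markers summed to 7.34 to 8.20, 4.45 to 7.32 and 0.740 to 2.50 CPM in CD4+ cells and to 8.14 to 12.3, 16.4 to 18.6 and 6.11 to 14.1 in CD8+ cells, and dendritic cell markers to 21.0 to 33.5, 14.0 to 30.5 and 18.2 to 25.2 and to 115 to 129.6, 60.3 to 87.6 and 125 to 138. B cell markers (294 to 314, 291 to 425 and 399 to 443 CPM in CD4+ cells, and 259.9 to 282, 265 to 442 and 589.8 to 782 in CD8+ cells) and erythroid markers (3.21 to 14.5, 5.12 to 6.57 and 27.7 to 36.6, and 3.89 to 17.6, 4.87 to 10.1 and 23.7 to 48.1) reached their highest values at 50 mg/kg. The part of these cells in the receptor levels was not tested, and in such sums fewer cells with a transcript and less of it per cell cannot be told apart.

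In CD4+ T cells, both receptors were present in every saline pool and far lower in every pool at 50 mg/kg. At 5 mg/kg, as scaled below, the pools of *Lilr4b* overlapped those of saline and the pools of *Lilrb4a* did not. After TMM scaling, which sets libraries so that the bulk of genes is level between them, *Lilr4b* was at 88.4, 79.3 and 89.9 CPM in the 3 saline pools (422, 535 and 589 UMIs). The lower dose gave 80.8, 92.7 and 91.5 CPM (313, 410 and 521 UMIs), and the higher dose 7.40, 6.51 and 5.97 CPM (43, 39 and 40 UMIs). The pools at 5 mg/kg overlapped those of saline, and the pools at 50 mg/kg lay far below both. Group means were 85.9 ± 5.71, 88.3 ± 6.53 and 6.63 ± 0.724 CPM (SD, n = 3 pools), so that the level at 50 mg/kg was 7.72% of that with saline, 13.0-fold lower.

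*Lilrb4a* was at 23.5, 19.7 and 20.8 CPM in the CD4+ cells of the saline pools (112, 133 and 136 UMIs). With the lower dose it was at 11.9, 12.9 and 16.0 CPM (46, 57 and 91 UMIs), and with the higher at 0.344, 0.834 and 0.747 CPM (2, 5 and 5 UMIs). The 3 groups did not overlap, in the order of the dose. How many of all genes separate in this way was not counted. Means were 21.3 ± 1.93, 13.6 ± 2.14 and 0.642 ± 0.261 CPM, which put 5 mg/kg at 63.7% and 50 mg/kg at 3.01% of saline (33.2-fold lower). With 12 UMIs over the 3 pools at 50 mg/kg, counting error limits this fold.

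In CD8+ T cells the same order held at lower levels. *Lilr4b* was at 48.4, 44.9 and 45.8 CPM with saline (397, 447 and 440 UMIs). The lower dose gave 52.3, 46.1 and 49.7 CPM (212, 255 and 390 UMIs), and the higher dose 5.41, 5.04 and 5.62 CPM (39, 38 and 55 UMIs). Again the pools at 5 mg/kg overlapped those of saline, and those at 50 mg/kg were lower than all others, at means of 46.4 ± 1.81, 49.4 ± 3.08 and 5.36 ± 0.290 CPM (11.5% of saline, 8.66-fold lower).

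*Lilrb4a* in CD8+ cells was at 10.5, 9.05 and 10.00 CPM with saline (86, 90 and 96 UMIs). The pools of the lower dose spread widely, at 3.21, 6.33 and 8.28 CPM (13, 35 and 65 UMIs), and those of the higher dose were at 0.277, 0.531 and 0.715 CPM (2, 4 and 7 UMIs). No pool of a dose overlapped another group, and how many of all genes separate so was not counted. Means were 9.85 ± 0.733, 5.94 ± 2.56 and 0.508 ± 0.220 CPM, or 60.3% and 5.16% of saline at the lower and the higher dose (19.4-fold lower at the latter).

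**Figure D1:**
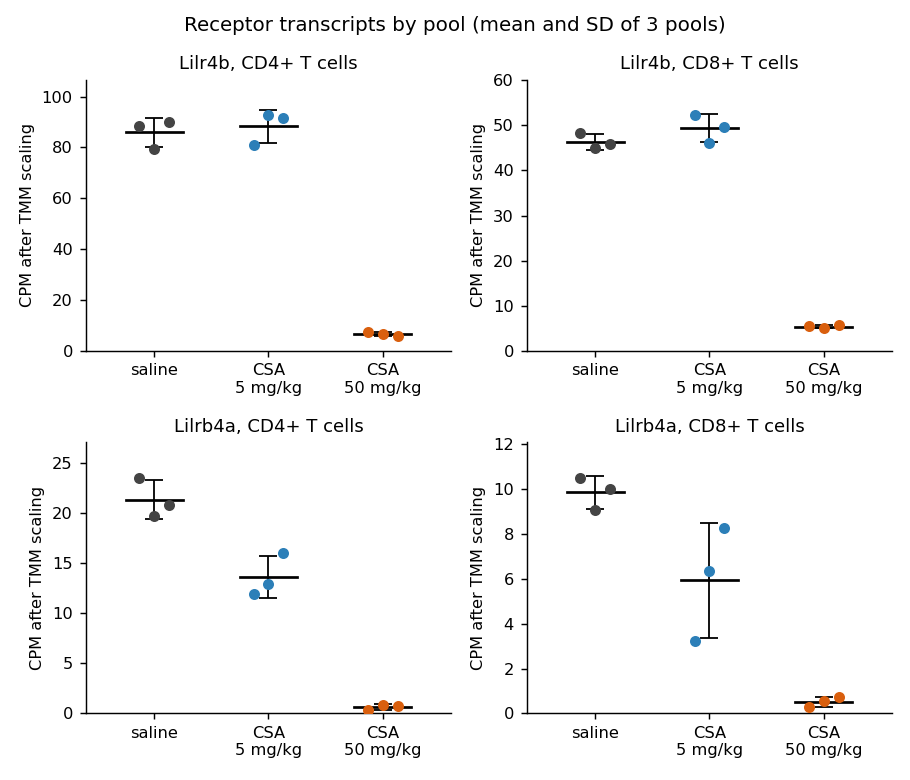
Level of each receptor (TMM-scaled CPM on a linear axis from 0) in each pool of CD4+ and CD8+ T cells by treatment, with points for pools, and lines with error bars for the mean ± SD of 3 pools. *Lilr4b* overlaps between saline and 5 mg/kg in both lineages, *Lilrb4a* is lower at 5 mg/kg, and both are lowest at 50 mg/kg.

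The contrasts at 50 mg/kg chose the receptors and are printed with their rank only. On the log2 scale, the difference from saline was -3.70 (standard error 0.105) for *Lilr4b* and -4.98 (0.245) for *Lilrb4a* in CD4+ cells, and -3.10 (0.0984) and -4.17 (0.330) in CD8+ cells. In CD4+ cells 52 and 21 of 10568 genes had a lower value (0.492% and 0.199%), and in CD8+ cells 78 and 31 of 10841 (0.719% and 0.286%). Relative to 5 mg/kg the differences were -3.74 and -4.36 in CD4+ cells and -3.19 and -3.55 in CD8+ cells. For reading these values, edgeR's quasi-likelihood test called 70.5% of genes at 50 mg/kg against saline in CD4+ cells (34.7% of genes higher, 35.8% lower) and 74.0% in CD8+ cells (37.1% higher, 36.9% lower). For 50 against 5 mg/kg it called 41.2% in CD4+ (19.9% higher, 21.3% lower) and 41.0% in CD8+ cells (20.0% higher, 21.0% lower).

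With CSA at 5 mg/kg and TMM scaling, *Lilrb4a* was called lower than with saline in both lineages, and *Lilr4b* was called in neither. The pool sums used here also entered the choice of the receptors, so these tests are not free of it. Whether the change differs between the genes was not tested. In CD4+ cells *Lilrb4a* fell by 0.62 on the log2 scale (standard error 0.141, 95% interval -0.89 to -0.34, adjusted p = 9.59e-04 by edgeR's quasi-likelihood fit, Benjamini-Hochberg over all genes), and *Lilr4b* differed by 0.05 (0.0697, -0.09 to 0.18, adjusted p = 0.590). In CD8+ cells *Lilrb4a* fell by 0.63 (0.216, -1.05 to -0.20, adjusted p = 0.0183, edgeR), and *Lilr4b* differed by 0.09 (0.0723, -0.05 to 0.23, adjusted p = 0.313). Calls were common at this dose, at 51.7% of genes in CD4+ cells (26.1% higher, 25.6% lower) and 60.2% in CD8+ cells (29.9% higher, 30.3% lower). Of all genes, 8.73% in CD4+ and 12.7% in CD8+ cells had a lower value than *Lilrb4a*. In CD8+ cells the call of *Lilrb4a* was lost in edgeR without saline pool 1 (-0.59, adjusted p = 0.0614), saline pool 3 (-0.63, 0.0505) or pool 1 of the lower dose (-0.40, 0.0768), and was kept without each of the other pools.

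The result for *Lilr4b* at 5 mg/kg depended on the scaling. As shares of all UMIs with no TMM scaling, *Lilr4b* was at 103 CPM with saline, 82.7 with the lower and 5.87 with the higher dose in CD4+ cells, and at 57.8, 45.8 and 4.62 CPM in CD8+ cells. With library size scaling it was lower at 5 mg/kg by -0.31 in CD4+ cells (adjusted p = 5.65e-04, edgeR) and by -0.34 in CD8+ cells (4.41e-04). The same scaling moved the median of all genes by -0.36 in CD4+ and -0.42 in CD8+ cells at 5 mg/kg, and by -0.44 and -0.53 at 50 mg/kg, so *Lilr4b* stayed close to the median gene under both. The share of calls that were higher moved with it, from 50.4% to 13.9% in CD4+ and from 49.7% to 15.8% in CD8+ cells at 5 mg/kg, from 49.2% to 20.4% and from 50.1% to 19.9% at 50 mg/kg, and from 48.2% to 33.1% and from 48.8% to 28.3% for 50 against 5 mg/kg. *Lilrb4a* was lower under both scalings at this dose, by -0.98 in CD4+ (adjusted p = 3.82e-06, edgeR) and -1.05 in CD8+ cells (3.21e-04) with library sizes alone.

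The change at the lower dose was then compared between the lineages in 1 fit of all pools, blocked by pool, through its interaction term; this test was added after the data were seen. The change in CD8+ minus that in CD4+ cells was 0.005 for *Lilr4b* (95% interval -0.18 to 0.19, adjusted p = 0.999, edgeR) and -0.06 for *Lilrb4a* (-0.48 to 0.36, 0.952), where 3.65% of genes were called (2.12% higher, 1.54% lower). The interval for *Lilrb4a* is wide against its change. Summing both receptors into 1 row, in view of their shared bases, gave a change of -0.06 in CD4+ (adjusted p = 0.442, edgeR) and -0.02 in CD8+ cells (0.884) at 5 mg/kg, and of -3.88 and -3.25 at 50 mg/kg.

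Both receptors were lower in CD8+ than in CD4+ T cells of the same pools, about as much with saline as at 5 mg/kg. In saline pools the difference was -0.82 for *Lilr4b* (standard error 0.0571, adjusted p = 1.85e-14, edgeR with pool as a block), a 1.77-fold lower level. For *Lilrb4a* it was -1.04 (0.118, adjusted p = 3.14e-09 in the same edgeR fit), or 2.06-fold. In the pools of the lower dose the differences were -0.80 (0.0726, adjusted p = 3.97e-09, edgeR) and -1.08 (0.183, 4.69e-05). With saline 43.0% of genes were called (21.6% higher, 21.4% lower in CD8+ cells) and at 5 mg/kg 34.9% (18% higher, 16.9% lower), and library sizes alone gave -0.84 and -1.06 with saline and -0.86 and -1.14 at 5 mg/kg. In the latter pools that scaling moved the share of higher calls from 51.7% to 37.6%. The gap was smaller among cells outside the authors' cycling clusters, at -0.36 for *Lilr4b* (adjusted p = 0.00135, edgeR) and -0.58 for *Lilrb4a* (0.00507) with saline and at -0.41 (3.54e-04) and -0.77 (0.0122) at 5 mg/kg.

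Single cells held few molecules of either receptor. Among cells with a UMI of *Lilr4b*, 66.3% to 85.6% had 1 UMI and the highest cell had 12, and for *Lilrb4a* 86.6% to 96.3% had 1 UMI. Since the median number of UMIs per cell was higher at each higher dose, shares of cells were taken after thinning each cell of at least 2000 UMIs to 2000, which left out 395, 452 and 80 shallower CD4+ cells and 121, 83 and 8 CD8+ cells by group. *Lilr4b* was then found in 17.6% ± 0.843 of CD4+ cells with saline (SD, n = 3 pools), in 13.1% ± 1.78 with the lower and in 0.902% ± 0.140 with the higher dose. *Lilrb4a* was found in 5.07% ± 0.217, 2.41% ± 0.206 and 0.167% ± 0.0547. The shares fell into 3 separate ranges for both genes. Thinning cells to 1 depth ties them to the share of all UMIs by construction, so they say nothing on the TMM-scaled level of *Lilr4b*.

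In CD8+ cells the shares were 11.8% ± 0.160, 9.46% ± 0.724 and 1.02% ± 0.317 for *Lilr4b* and 2.47% ± 0.302, 1.21% ± 0.671 and 0.0855% ± 0.00688 for *Lilrb4a*. Without thinning, *Lilr4b* was found in 25.3%, 27.2% and 2.99% of CD4+ and 20.1%, 22.0% and 3.12% of CD8+ cells, and *Lilrb4a* in 8.14%, 5.55% and 0.356% and in 5.27%, 3.79% and 0.329%. Naive cells (the authors' TN clusters) were taken as a reference. Whether their UMIs are background or expression was not tested. By mean level with saline they were not the lowest cluster for *Lilr4b* in CD4+ cells or for *Lilrb4a* in either lineage. With saline, 5 of 54 thinned CD4+ naive cells had a *Lilr4b* UMI, a mean of 8.03% ± 7.56 over pools at a median of 2591 UMIs per cell before thinning, against 3268 in all CD4+ cells. In CD8+ naive cells it was 7 of 110 with saline (6.15% ± 5.77) and 7 of 153 at 5 mg/kg (4.41% ± 2.51). At 50 mg/kg, 0 of 83 CD4+ naive cells had a *Lilr4b* UMI, which allows a share of up to 3.61%, and 0 of 161 CD8+ naive cells, which allows up to 1.86%. The limits for *Lilrb4a* are the same, since 0 of these cells had a UMI of it, and the shares over all cells at 50 mg/kg lie under them. By level over all cells of a cluster, *Lilr4b* at this dose was at 9.37 to 13.7 CPM in CD8+ C0 and 5.80 to 8.24 in C1, against 0 to 3.09 in naive CD8+ cells, without overlap, and at 7.12 to 9.11 CPM in CD4+ C1 against 0 in naive CD4+ cells. *Lilrb4a* had a UMI in 1 of 54 CD4+ and 2 of 110 CD8+ naive cells with saline, means of 2.78% ± 4.81 and 1.88% ± 1.63, and in 0 of 96 (a limit of 3.12%) and 1 of 153 (0.606% ± 1.05) with the lower dose. With saline in both lineages and the lower dose in CD8+ cells, the share of *Lilrb4a* over all cells lies within 1 SD of the naive share and cannot be told from it with so few naive cells.

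**Figure D2:**
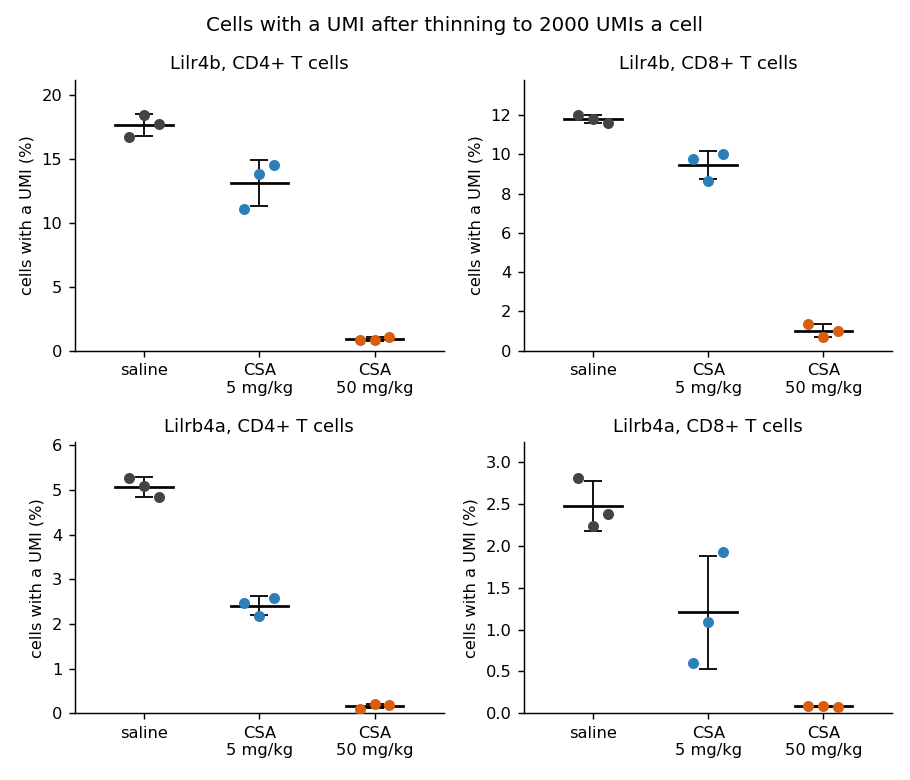
Percent of cells with at least 1 UMI of each receptor, in each pool, after thinning to 2000 UMIs per cell, with points for pools, and lines with error bars for the mean ± SD of 3 pools. At this depth the shares step down from saline to 5 mg/kg to 50 mg/kg for both genes, from 17.6% to 0.902% for *Lilr4b* in CD4+ cells. Thinned to 1000 UMIs (not drawn), *Lilr4b* in CD8+ cells overlapped between saline (5.74% to 6.44%) and 5 mg/kg (5.35% to 6.19%), and *Lilrb4a* there between the doses.

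Most cells with a UMI of 1 receptor had none of the other, at a depth of 2000 UMIs per cell. Of thinned CD4+ cells with saline, 72 had UMIs of both, 575 of *Lilr4b* alone, 113 of *Lilrb4a* alone and 2903 of neither. *Lilr4b* was thus in 38.9% of cells with *Lilrb4a* and in 16.5% of the others. With the lower dose the shares were 19.7% and 13.2% (12 cells with both). In CD8+ cells they were 24.3% and 11.5% with saline (27 cells with both) and 35.3% and 9.16% at 5 mg/kg (12 cells). These are descriptions over cells that share pools, and a UMI of the one gene read as the other would add to cells with both. At 50 mg/kg 1 CD4+ cell and 0 CD8+ cells had both.

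Across the authors' clusters of CD4+ cells with saline, both receptors were highest in C0, the *Cd226*hi effector cells. Clusters were made from the same counts, so their levels, as CPM per pool and cluster without TMM scaling, are a description with no test. *Lilr4b* was at 233 ± 21.4 CPM in C0 (216 to 257), which held 45.5% of its UMIs in 25.7% of the cells and did not overlap the next cluster. C1, the *Cd226*lo effector cells, followed at 158 ± 46.5 CPM, and then C8 (*Fcer1g*hi) at 109 ± 25.5. From C1 downward each cluster overlapped the next: C6 (*Cd226*hi cycling) at 86.2, C5 (cycling effector #2) at 82.8, C7 (cytotoxic) at 77.8, C10 (*Isg15*hi) at 65.7, C3 (*Cd226*lo cycling) at 46.1, naive C9 at 36.8, follicular helper C4 at 27.1 and *Tcf7*hi precursor-like C2 at 19.5 CPM. Regulatory (C11, 20 cells) and Th17 (C12, 30 cells) cells were too few for a level per pool.

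*Lilrb4a* in CD4+ cells was at 61.1 ± 3.88 CPM in C0, with 48.6% of its UMIs, clear of every other cluster. Next were C10 at 29.0, C8 at 27.1, C5 at 26.2, C6 at 21.7, C7 at 21.6 and C1 at 19.3 CPM, each overlapping its neighbour. C1 was clear of C3 at 12.3 CPM, and naive cells (8.62), C4 (7.19) and C2 (5.92) were lowest, with overlaps. C1 thus ranked second for *Lilr4b* and seventh for *Lilrb4a*.

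In CD8+ cells with saline, *Lilr4b* was highest in C8, which the authors named exhausted (TEX), at 143 ± 48.0 CPM, and in C0 at 116 ± 5.33. C1 was at 96.9 ± 21.7, C6 (*Fcer1g*hi) at 83.8 ± 25.9 and C3 (cycling effector #2) at 58.9 ± 5.41 CPM, and these 5 clusters overlapped in turn. C3 was clear of C4 (*Cd226*hi cycling) at 40.3, which was followed with overlaps by *Tcf7*hi C5 at 37.9, *Cd226*lo cycling C2 at 34.2 and naive C7 at 26.5 CPM. *Lilrb4a* was highest in C6 (29.4 ± 12.1), C0 (26.4 ± 4.13) and C8 (23.3 ± 8.20), which overlapped each other and were clear of C1 at 12.6 CPM. C3, C4, naive C7, C2 and C5 followed at 11.2, 10.2, 9.85, 6.54 and 5.79 CPM, with overlaps. C0 held 25.7% of the *Lilr4b* UMIs and 27.6% of the *Lilrb4a* UMIs in 20.3% of CD8+ cells, a smaller lead than in CD4+ cells. The CD8+ cluster numbers were matched to their names by markers and by the shares of each group.

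Within clusters, the higher dose was lower throughout and the lower dose was not. At 50 mg/kg the mean of each receptor was lower than with saline in every cluster compared, which were the 10 CD4+ and 8 CD8+ clusters with at least 10 cells in each pool of both groups. In CD4+ cells *Lilr4b* did not overlap saline in 7 of the 10, and overlapped in follicular helper, naive and *Isg15*hi cells. *Lilrb4a* did not overlap in 9 of 10, the exception being naive cells. In CD8+ cells neither receptor overlapped in any of the 8. In CD4+ C0, *Lilr4b* was at 12.7 ± 9.74 CPM at 50 mg/kg and *Lilrb4a* at 1.32 ± 1.36. CD4+ C8 had the highest *Lilr4b* level among clusters at this dose, at 15.6 ± 2.75 CPM. In CD8+ C0 they were at 10.8 ± 2.45 and, with 0 UMIs in 560 cells, at under 1.04 CPM, the level of 3 UMIs over the group. CD8+ exhausted cells kept 14.6 ± 9.59 CPM of *Lilr4b*. Over whole lineages, 35.8% of genes in CD4+ and 36.9% in CD8+ cells were called lower at this dose. The share of all genes without overlap within a cluster was not counted.

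At the lower dose, *Lilr4b* overlapped saline in all 11 CD4+ clusters compared, with a lower mean in 6 of them, at 194 ± 37.2 CPM in C0 and 129 ± 11.7 in C1. Among 8 CD8+ clusters it was lower without overlap in C5 (23.3 ± 10.3 CPM) and higher without overlap in C4 (63.8 ± 13.8, against 40.3 ± 5.41 with saline). *Lilrb4a* was lower without overlap in 3 of 11 CD4+ clusters, C0 (41.3 ± 3.45 CPM), C3 (8.02 ± 2.79) and C5 (5.79 ± 0.483), and in 2 of 8 CD8+ clusters, C3 (6.64 ± 3.70) and C6 (9.10 ± 3.92). In no cluster was it higher without overlap. These levels have no TMM scaling. Over whole lineages, leaving it out moved the median of all genes by -0.36 in CD4+ and -0.42 in CD8+ cells. How many of all genes separate so within a cluster was not counted. These counts are thus not shown to be particular to the receptors.

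**Figure D3:**
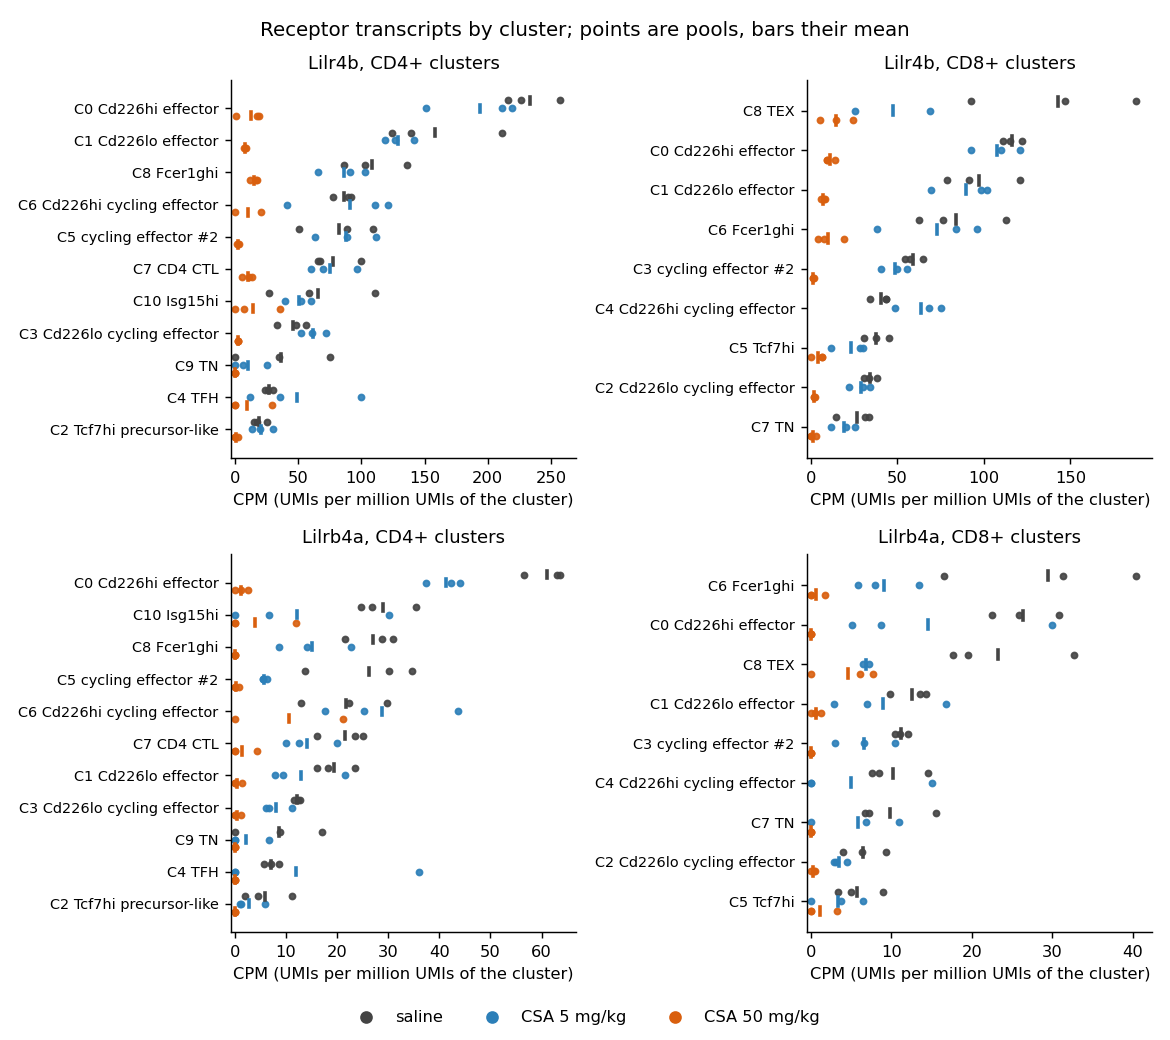
Level of each receptor (CPM without TMM scaling) in each authors' cluster of CD4+ and CD8+ T cells with saline, CSA at 5 mg/kg and CSA at 50 mg/kg, as points for pools with at least 10 cells and bars for their mean. CD4+ C0 stands highest with saline for both receptors, at 233 CPM for *Lilr4b* and 61.1 CPM for *Lilrb4a*, and the values at 50 mg/kg lie near 0 in most clusters.

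Cluster shares also moved with dose: C0 made up 25.7% of CD4+ cells with saline, 14.5% with the lower and 12.5% with the higher dose, and 20.3%, 7.89% and 15.9% of CD8+ cells. To set this aside, levels were recomputed with each cluster weighted by its share of UMIs with saline, over the 10 CD4+ and 7 CD8+ clusters present in every pool (81.0% and 66.2% of the UMIs with saline). In CD4+ cells *Lilr4b* was then at 91.8% of saline with the lower and 7.45% with the higher dose, against 76.0% and 5.57% with each group's own mix. *Lilrb4a* was at 65.6% and 2.37%, against 45.0% and 2.02%. In CD8+ cells *Lilr4b* was at 86.7% and 7.34%, against 71.0% and 6.80%, and *Lilrb4a* at 54.7% and 2.21%, against 42.9% and 2.13%. The weighting therefore moved the values at 5 mg/kg by more percentage points than those at 50 mg/kg, which stayed under 8% of saline. These percentages rest on CPM without TMM scaling.

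Cells with a UMI of either receptor were set against cells of the same pools with none, after thinning, over the 6 pools of saline and the lower dose, blocked by pool. In CD4+ cells, those with a UMI had more of the cytokine and chemokine transcripts *Csf1*, *Csf2*, *Ifng*, *Ccl3* and *Ccl4* and of 10 of 14 effector genes, and less of *Sostdc1* and *Ccr7*. Of 7904 genes, 5.53% passed (2.90% higher, 2.63% lower, edgeR), and library sizes alone moved the share of higher calls from 52.4% to 63.2%. The largest rises among genes of at least 50 CPM were those of the growth factors *Csf1* (log2 1.10) and *Csf2* (1.10), the protease gene *Adam8* (1.09), the glucose transporter *Slc2a3* (1.04), the cytokine *Ifng* (1.00), the transcription factor *Bhlhe40* (0.99), *Asb2* (0.98), the chemokines *Ccl4* (0.98) and *Ccl3* (0.95) and the chemokine receptor *Ccr2* (0.93). *Bhlhe40* was at 459 ± 125 CPM in cells with a UMI and 225 ± 41.8 in cells without (adjusted p = 1.05e-13 by edgeR, higher in 6 of 6 pools), and *Csf2* was higher in 4 of 6 pools. The largest falls were those of *Sostdc1* (-1.78, 46.8 ± 18 against 152 ± 26.4 CPM, adjusted p = 1.05e-13 by edgeR), *Rflnb* (-1.52), the lymph node homing receptor *Ccr7* (-1.51), *Nsg2* (-1.38) and the folate receptor *Izumo1r* (-1.35), each higher in 0 of 6 pools.

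By list, 10 of 14 effector genes tested in CD4+ cells were higher and 0 lower in cells with a UMI. Their median log2 was 0.37, against -0.003 for all genes, of which 2.90% were called higher and 2.63% lower. Of 10 naive and memory genes 5 were lower, among them *Tcf7* (-1.15), *Bach2* (-1.10) and *Id3* (-1.05), and 1 was higher (median -0.54). Of 15 co-inhibitory genes 3 were higher, *Nr4a3* (1.12), *Havcr2* (0.86) and *Entpd1* (0.81), and 2 lower, *Lag3* (-0.42) among them (median 0.03). Other inhibitory receptors rose in 2 of 9, *Cd200r1* (0.91) and *Klrc1* (0.78), ITIM signalling genes in 2 of 10, *Dok2* (0.35) and *Nfkb1* (0.32), and proteins described as ligands in 2 of 6, *Icam1* (0.56) and *Itgb3* (0.54), with 0 lower in each. Signalling adaptors of activating receptors passed in 0 of 4. Of 10 calcineurin genes 2 were higher, *Fasl* (0.75) and *Il2ra* (0.69), and 1 lower, *Egr1* (-0.89), and *Cd226*, which names C0, was higher (0.69). These counts were the same with library sizes alone, but for 1 more ITIM signalling gene that was higher.

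In CD8+ cells the difference was smaller, at 3.32% of 7480 genes (1.60% higher, 1.71% lower), and chemokine genes led it. *Ccl4* was at 732 ± 571 CPM in cells with a UMI and 286 ± 75.0 in cells without (log2 1.23, standard error 0.0886, adjusted p = 7.40e-21, edgeR, higher in 6 of 6 pools). *Ccl1* (1.43) and *Xcl1* (0.95) were higher in 3 of 6 pools only, and *Ccl3* (0.98), *Ccr2* (0.83), *Ifng* (0.75), *Ifitm3* (0.71), *Jaml* (0.68), *Tnfaip3* (0.63) and *Peak1* (0.62) in 5 or 6. The lower genes were the S-phase and mitotic genes *Tk1* (-0.72), *Bub1b* (-0.71) and *Fen1* (-0.71), and *Polr2i* (-0.63). Of the lists, 5 of 16 effector genes rose (median 0.14, against 0.003 for all genes), 2 of 10 naive and memory genes rose (*Il7r* 0.43, *S1pr1* 0.29), and 1 of 15 co-inhibitory genes rose, *Nr4a3* (1.17). Of 10 other inhibitory receptors *Klrc1* alone rose (0.44), with 0 of 10 ITIM signalling genes, 0 of 6 ligands, 0 of 4 adaptors, and 2 of 8 calcineurin genes, *Egr1* (0.81) and *Il2ra* (0.56). *Cd226* rose by 0.35. With library sizes alone 6 effector genes and 1 ITIM signalling gene were higher and the other lists kept these counts. *Egr1* was thus lower in the CD4+ and higher in the CD8+ cells with a UMI, a difference that was not tested between the lineages.

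Depth and cluster moved with this split. Cells with a UMI had fewer UMIs before thinning than cells without, with medians of 2996 to 3230 against 3194 to 3359 in CD4+ and 3411 to 3665 against 4219 to 4481 in CD8+ saline pools. Within C0 alone, compared after the data were seen, 2 of 3644 genes passed in CD4+ cells (0.0549%), *Bhlhe40* and *Asb2*, both higher. In CD8+ cells 2 of 2898 passed (0.0690%), *Gzmb*, lower (0.0345%), and *Malat1*, higher (0.0345%). This fit had less power, with 16 to 137 CD4+ cells with a UMI per pool. In CD8+ cells pools 1 and 2 of the lower dose, with 8 and 9 such cells, were left out. The few calls therefore do not show that the difference is absent within C0. *Gzmb* and *Malat1* were named after their values were seen. Myeloid markers summed to 389 to 612 CPM in CD4+ cells with a UMI and 386 to 602 in cells without, and to 425 to 594 and 431 to 553 in CD8+ cells. The sums of NK markers were 3.66 to 9.85 and 4.55 to 9.53 CPM in CD4+ cells and 14.4 to 51.3 and 8.44 to 20.0 in CD8+ cells, those of dendritic cell markers 21.1 to 86.8 (median 41.2) and 16.6 to 38.7 (29.4) in CD4+ cells and 67.2 to 194 (145) and 64.2 to 148 (105) in CD8+ cells, and those of mast cell markers 0 to 4.93 and 1.19 to 2.42 and, with all 8 at 0 in cells with a UMI, 0 and 0 to 1.86. The part of these cells in the differences was not tested.

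**Figure D4:**
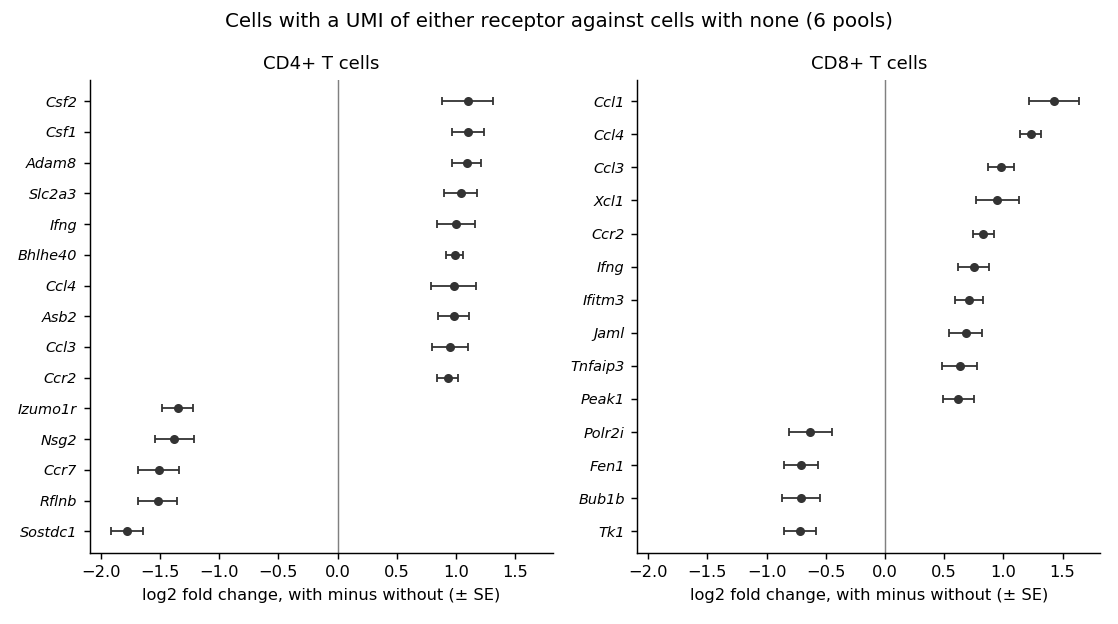
Log2 difference of the genes named above between cells with a UMI of either receptor and cells with none, in CD4+ and CD8+ T cells (edgeR, 6 pools, thinned cells), with bars for the standard error. *Bhlhe40*, *Ccl4* and *Ifng* lie on the higher side and *Sostdc1*, *Ccr7* and *Tk1* on the lower side.

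Clonal size was a further split that the choice of the receptors did not use. Cells whose TCR clonotype was shared by at least 2 cells of a pool were set against clonotypes of 1 cell in the same 6 pools. In CD8+ cells *Lilr4b* was at 37.8 ± 8.43 CPM in expanded and 57.3 ± 9.26 CPM in single clonotypes, a mean log2 ratio of -0.61 ± 0.33 (SD, n = 6), lower in 6 of 6 pools. The exact two-sided sign-flip permutation test gave p = 0.0312, the smallest that 6 pools allow, and 0.125 after adjustment over the 4 comparisons, so the difference did not pass. *Lilrb4a* in CD8+ cells had a ratio of -0.45 ± 0.58 (adjusted exact permutation p = 0.312). In CD4+ cells the ratios were -0.08 ± 0.21 for *Lilr4b* and -0.12 ± 0.29 for *Lilrb4a* (adjusted exact permutation p = 0.438 for each). With clonotypes of at least 5 cells *Lilr4b* in CD8+ cells was at 26.2 ± 9.32 CPM (ratio -1.13, adjusted exact permutation p = 0.125). Within C0, in the 3 pools with enough cells, the ratio was -0.21 (adjusted exact permutation p = 0.50). The smallest exact permutation p that 3 pools allow is 0.250, so the test within C0 could not pass.

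TEa cells, which all carry 1 TCR, were too few for a comparison between pools. Over a group, *Lilr4b* had 43 UMIs in 123 TEa cells with saline (81.1 CPM, exact Poisson interval 58.7 to 109), 46 in 130 cells at 5 mg/kg (60.1, 44.0 to 80.2) and 0 in 27 cells at 50 mg/kg (up to 16.1 CPM). *Lilrb4a* had 10 UMIs (18.9 CPM, 9.04 to 34.7), 7 UMIs (9.15, 3.68 to 18.8) and 0 UMIs. The intervals cover counting error only, and those of saline and 5 mg/kg overlap for both genes.

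The other genes of the pathway were taken from lists by role, and their changes at 50 mg/kg against saline are those of the test over all genes. Among signalling genes downstream of ITIMs, 4 of 11 rose and 5 fell in CD4+ cells (median log2 0.10). In CD8+ cells 5 rose and 4 fell (-0.03), at a median of all genes of -0.01 and 0.001. Of all genes, 34.7% were called higher and 35.8% lower in CD4+ cells, and 37.1% and 36.9% in CD8+ cells, close to these counts. *Ptpn11*, which encodes the phosphatase SHP-2, fell by 1.78 in CD4+ (adjusted p = 5.16e-16, edgeR) and 1.58 in CD8+ cells (1.28e-12). *Ptpn6*, which encodes SHP-1 and is given here outside the rule for named genes, did not move alike in the lineages. It fell by 0.23 in CD4+ (adjusted p = 4.30e-05, edgeR) and rose by 0.53 in CD8+ cells (7.43e-08). The Src-family kinase gene *Fyn* fell by 0.89 and 1.09, while *Lck*, which phosphorylates these motifs in T cells, rose by 0.66 and 0.86. The adaptor *Dok2* rose by 1.10 in CD4+ cells, and *Inpp5d*, encoding the lipid phosphatase SHIP-1, fell by 0.66 in CD8+ cells. With library sizes alone the counts were 2 higher and 7 lower in CD4+ and 1 higher and 6 lower in CD8+ cells. At the lower dose, which shares the saline pools, 4 rose and 4 fell in CD4+ cells and 4 rose and 5 fell in CD8+ cells. With library sizes alone 0 were higher and 7 lower in each lineage. Of all genes, 26.1% were called higher and 25.6% lower in CD4+ cells at this dose, and 29.9% and 30.3% in CD8+ cells.

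Proteins described as binding LILRB4 or gp49B fell in 4 of 6 tested and rose in 0 in each lineage at 50 mg/kg, where 35.8% of all genes in CD4+ and 36.9% in CD8+ cells were called lower (median -0.49 in CD4+ and -0.91 in CD8+ cells; 6 of 6 lower with library sizes alone). The integrin chain gene *Itgb3* fell by 1.51 in CD4+ (adjusted p = 5.06e-11, edgeR) and 3.10 in CD8+ cells (1.07e-13), and its partner *Itgav* by 0.37 and 0.94. *Alcam* (CD166) fell by 0.39 and 1.14, *Icam1* by 0.78 in CD4+ cells and *Apoe* by 0.88 in CD8+ cells. The lower dose had 3 of 6 lower and 0 higher in each lineage, *Itgb3*, *Itgav* and *Alcam*, and 5 lower with library sizes alone. Of all genes, 25.6% in CD4+ and 30.3% in CD8+ cells were called lower at that dose.

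Other inhibitory receptors did not move as 1 group at 50 mg/kg. Of all genes, 34.7% were called higher and 35.8% lower in CD4+ cells at this dose, and 37.1% and 36.9% in CD8+ cells. In CD4+ cells 4 of 13 rose and 6 fell (median -0.58), and in CD8+ cells 8 of 17 rose and 6 fell (0.33; with library sizes alone 3 higher and 7 lower, and 5 higher and 8 lower). *Pdcd1*, encoding PD-1, fell by 3.40 in CD4+ and 3.22 in CD8+ cells, *Cd200r1* by 2.05 and 2.50, and *Tigit* by 1.93 in CD4+ cells. *Klrg1*, a lectin-like receptor with an ITIM, rose by 3.46 and 2.64 (adjusted p = 6.86e-17 and 5.80e-10, edgeR), and *Klra3* by 2.43 in CD8+ cells. Of the same genes 4 rose and 3 fell in CD4+ and 2 rose and 3 fell in CD8+ cells at 5 mg/kg (0 higher and 6 lower, and 0 and 9, with library sizes alone). Adaptors of activating receptors rose in 2 of 4 in CD4+ cells, *Hcst* (DAP10, 1.43) and *Cd247* (0.25), and in 3 of 4 in CD8+ cells, *Hcst* (1.86), *Tyrobp* (DAP12, 0.64) and *Cd247* (0.44), with 0 lower; with library sizes alone 1 rose and 1 fell in each lineage. The lower dose had 2 of 4 and 4 of 4 higher (1 and 2 with library sizes alone). At that dose, 26.1% of all genes were called higher and 25.6% lower in CD4+ cells, and 29.9% and 30.3% in CD8+ cells.

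The co-inhibitory list overlaps genes the study itself examined on these cells and is therefore no independent evidence of direction. At 50 mg/kg 12 of 17 genes fell and 2 rose in CD4+ cells (median -0.70), and 13 fell and 3 rose in CD8+ cells (-1.14). Of all genes, 34.7% were called higher and 35.8% lower in CD4+ cells at this dose, and 37.1% and 36.9% in CD8+ cells. *Tox*, a factor of exhausted T cells, fell by 3.39 and 4.07, *Cd160* by 1.86 in CD4+ cells, and *Nr4a2* and *Nr4a3* by 2.59 and 2.23 in CD8+ cells. At the lower dose 7 rose and 4 fell in CD4+, and 5 rose and 6 fell in CD8+ cells, and with library sizes alone 2 rose and 7 fell, and 3 rose and 10 fell. Of the calcineurin list, 8 of 12 fell and 0 rose in CD4+ cells at 50 mg/kg (median -0.74) and 8 of 11 fell and 1 rose in CD8+ cells (-1.21). *Tnfrsf9* fell by 1.43 and 1.92 and *Egr2* by 1.23 and 1.90, *Nfatc2* and *Nfatc1* by 1.21 and 1.06 in CD4+ cells, and *Tnfrsf4* and *Cd40lg* by 3.92 and 2.57 in CD8+ cells. The lower dose had 3 higher and 4 lower of 12, and 1 higher and 5 lower of 11 (3 and 7, and 0 and 7, with library sizes alone). Library sizes alone made 12 of 12 and 9 of 11 lower at 50 mg/kg. At 5 mg/kg, 26.1% of all genes were called higher and 25.6% lower in CD4+ cells, and 29.9% and 30.3% in CD8+ cells. Effector genes rose in 5 and fell in 7 of 16 in CD4+ cells, and rose in 8 and fell in 6 in CD8+ cells at 50 mg/kg, naive and memory genes rose in 5 and fell in 4 of 10, and rose in 5 and fell in 2, and *Cd226* fell by 1.53 and 1.91. With library sizes alone effector genes were higher in 4 and lower in 9, and in 2 and 10, and naive and memory genes in 3 and 5, and in 2 and 5.

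**Figure D5:**
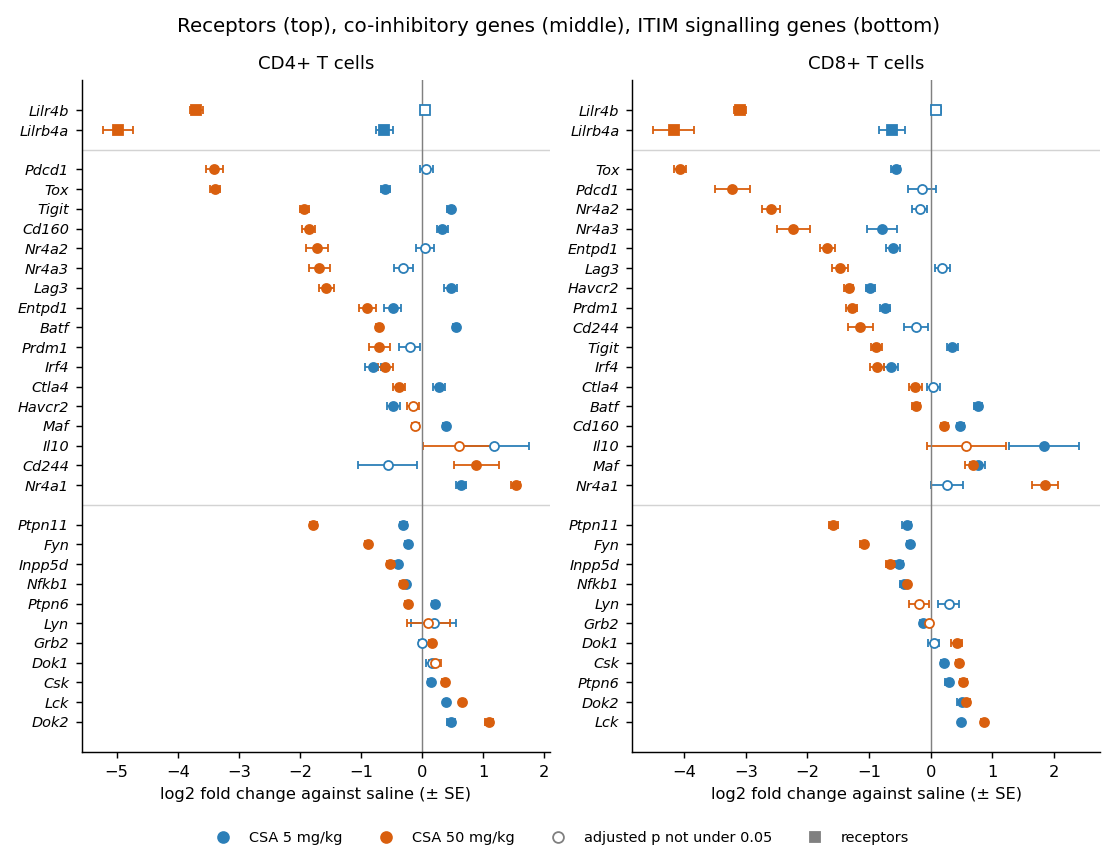
Log2 change against saline at both CSA doses, with bars for the standard error, of the receptors (squares), the co-inhibitory genes and the ITIM signalling genes (circles) in CD4+ and CD8+ T cells, open where the adjusted p was not under 0.05. The receptors carry no test at 50 mg/kg, where they lie on the lower side beside *Pdcd1* and *Tox*, with *Ptpn11* lowest and *Lck* on the higher side among signalling genes.

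The comparison of the lineages gave another grouping of the lists. In saline pools, 11 of 16 effector genes were higher and 1 lower in CD8+ than in CD4+ cells, against 21.6% and 21.4% of all genes, and *Cd226* was higher by 1.17, whereas both receptors were lower. Lower as well were the calcineurin genes, 9 of 12 of which were lower and 2 higher in CD8+ cells (*Cd40lg* -4.43, *Il2* -3.78, *Tnfrsf4* -2.71, *Egr3* -1.90), and the naive and memory genes, 8 of 10 lower and 0 higher. Co-inhibitory genes were split, 9 higher and 7 lower of 17, and ITIM signalling genes were higher in 1 and lower in 6 of 11.

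Likeness to other genes depended on what was correlated. Over the 20 clusters with at least 50 saline cells, the receptors had a Pearson correlation of 0.873 with each other, on log2(CPM + 1). The 5 genes most like *Lilr4b* among 3684 of at least 50 CPM were *Ccr2* (0.822), *Anxa1* (0.809), *Bhlhe40* (0.800), *Cxcr6* (0.778) and *Id2* (0.744), and those most like *Lilrb4a* were *Il2rg* (0.755), *Furin* (0.722), *Ccnk* (0.707), *Bhlhe40* (0.707) and *Inpp5d* (0.701). Over the 18 sums per pool and lineage the receptors correlated at 0.966. *Lilr4b* was then most like *Hist1h4d* (0.980), *Serpina3g* (0.978), *Hist1h2bj* (0.974), *Hist1h2bm* (0.972) and *Lpcat4* (0.967) among 3191 genes, and *Lilrb4a* most like *Prkca* (0.983), *AU020206* (0.979), *Arid5b* (0.978), *Ptpn11* (0.975) and *Eea1* (0.974). The points share libraries and depth, and those over pools are set by the doses, so no p is given. Genes alike over clusters differed in their change with dose. At 50 mg/kg *Ccr2* rose by 1.11 in CD4+ and 1.00 in CD8+ cells (adjusted p = 2.99e-13 and 7.38e-11, edgeR), *Anxa1* by 2.58 and 3.26 and *Id2* by 1.20 and 0.69, where both receptors were lower. *Bhlhe40*, on the list of each receptor, fell by 0.53 and 1.24, *Furin* by 1.5 and 0.99 and *Inpp5d* by 0.52 and 0.66. *Il2rg* rose by 0.15 and 0.19, *Cxcr6* was at 0.04 in CD4+ cells (adjusted p = 0.544, edgeR) and rose by 0.40 in CD8+ cells, and *Ccnk* fell by 0.22 in CD4+ cells and was at -0.12 in CD8+ cells (0.0859). *Serpina3g*, a serine protease inhibitor, rose at 5 mg/kg by 0.53 and 0.54 and fell at 50 mg/kg by 1.84 and 1.92.

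Of 10 further family members searched under older and newer symbols, 4 were counted. *Pirb*, the best known inhibitory member of the paired immunoglobulin-like receptors, had 156 UMIs in all pools, *Pira2* 99, *Lilra5* 30 and *Lilra6* 10. *Pirb* could be tested in CD8+ cells, where it differed by 0.08 at 5 mg/kg (standard error 0.423, adjusted p = 0.881, edgeR) and by -0.04 at 50 mg/kg (0.399, 0.931), and its standard errors were not much smaller than the change of *Lilrb4a* at 5 mg/kg. Its difference between CD8+ and CD4+ cells with saline was 0.88 (0.421, adjusted p = 0.0922, edgeR). Of the 3 nearest genes on either side of the receptors, *Gm46189* and *Gm46224* were counted, with 2 UMIs each over all pools.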

How the data were processed

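The submitters' processing notes name Cell Ranger, Seurat 3.0.0 and the mm10 build; counter settings, annotation release and read length are not given in the sources used here. The deposited table holds UMI counts per gene and cell, not normalised, after the authors had removed doublets and split cells by lineage. Pool, cluster, clonotype and TEa marks per cell were used as the authors deposited them.

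Counts were summed per pool and lineage, which gives 3 pools per group. Pools of 2 mice are the replicates. The edgeR p-values rest on the spread between pools, which the fit shares in part over genes, so a gene can pass while its own pools disagree. For a dose this is the spread of pools within 1 capture. Genes passing filterByExpr were tested with edgeR 4.0.16 (quasi-likelihood, TMM, all 9 pools in 1 fit per lineage) in R 4.3.3, with Benjamini-Hochberg adjustment over all genes and a threshold of 0.05. CD8+ against CD4+ cells, and cells with against cells without a receptor UMI, were blocked by pool. CPM without TMM scaling describe clusters. Shares came from cells thinned to 2000 UMIs, clonotype ratios used 0.5 added to each UMI sum, and likeness used log2(CPM + 1). Intervals cover 95% and, for counts of 0, the limit is 3 counts.

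Members and lists were chosen with earlier results of these data known. Named genes are the receptors, up to 4 members of each list with the largest change past the threshold, the 5 genes most like each receptor, the 10 largest rises and 5 largest falls between cells with and without a UMI among genes of at least 50 CPM, and 3 neighbours on each side. Alternatives were DESeq2 1.42.0, no filter, library size scaling, only the groups compared, TEa cells included, only cells of at least 2000 UMIs, cells outside cycling clusters, each pool left out, and other blocks, thinning depths and clonotype sizes. The interaction, the merged receptors, the restriction to C0, the library size scaling of cells with against cells without a UMI, and leaving out pools for shares and clonotypes were added after seeing the data. Simulated counts had 200 genes changed by a log2 of 1 in random directions, at 1 fixed spread. The fit recovered 91.5% for CD4+ cells at 50 mg/kg against saline (10476 genes) and 93.5% for CD8+ cells (10780). It recovered 92.5% for CD8+ against CD4+ cells with saline (10589). For cells with against cells without a UMI it recovered 78.5% (7879) in CD4+ and 76% (7519) in CD8+ cells. In that order, 13, 12, 10, 7 and 8 unchanged genes were called. In the data 70.5% of genes in CD4+ and 74.0% in CD8+ cells were called at 50 mg/kg. The simulation changed far fewer, so it does not test the scaling there.

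Exon positions came from GENCODE vM21 and the promoter from RefSeq (GRCm38.p6), where 1 of the 2 receptors matched by symbol. *Lilrb4a* is named only. A gene that the rule for named genes would name is not reported here.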

Additional observations from a re-analysis of the deposited data

How the results depend on the processing

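Among values recomputed under an alternative, 336 kept their direction and their side of the threshold or stayed within their spread, 29 moved, 3 reversed and 3 were weaker. With library size scaling, *Lilr4b* at 5 mg/kg turned to -0.31 in CD4+ (adjusted p = 5.65e-04, edgeR) and -0.34 in CD8+ cells (4.41e-04), in step with the median of all genes. The same scaling put *Lilr4b* at 50 mg/kg against saline at -4.13 in CD4+ and -3.63 in CD8+ cells and at -3.30 against 5 mg/kg in CD8+ cells, and *Lilrb4a* in CD8+ cells at -4.70. Outside the cycling clusters *Lilr4b* was at -3.34 and -2.90 against saline and at -3.28 and -2.79 against 5 mg/kg in CD4+ and CD8+ cells. Among counts of genes called, that choice of cells gave 2836 in place of 4443 (CD8+, 50 against 5 mg/kg), and 2208 in place of 4561 and 1965 in place of 3573 (CD8+ against CD4+ with saline and the lower dose), where DESeq2 gave 2441 and 1729. For cells with against cells without a UMI, DESeq2 called 285 in place of 437 genes in CD4+ and 164 in place of 248 in CD8+ cells. Cells not thinned gave 1198 in CD4+. C0 alone, with fewer cells and, in CD8+ cells, fewer pools, gave 2 in each lineage. Clonotypes of at least 5 cells turned *Lilrb4a* in CD4+ cells to 0.34 (adjusted exact permutation p = 0.188). Thinned to 1000 UMIs, *Lilr4b* was in 9.41%, 7.77% and 0.495% of CD4+ and 6.08%, 5.70% and 0.700% of CD8+ cells with saline, the lower and the higher dose, and *Lilrb4a* in 2.72% and 1.36% of CD4+ cells with saline and the lower dose and in 1.43%, 0.524% and 0.0595% of CD8+ cells; the fewer UMIs kept lower these shares by construction. The cause of the other moves was not tested. Leaving out 1 pool at a time, *Lilrb4a* at 5 mg/kg ranged from -0.77 to -0.54 in CD4+ and from -0.99 to -0.40 in CD8+ cells, and lost its call in CD8+ cells without saline pool 1, saline pool 3 or pool 1 of the lower dose. Blocking by hashtag number changed no call (*Lilrb4a* -0.63, adjusted p = 0.00133, edgeR, in CD4+ and -0.67, 0.0133, in CD8+ cells, and 5413 in place of 5467 genes called at 5 mg/kg in CD4+ cells). Pools that share a number did not deviate together (correlations of -0.141 to 0.13), so the numbers were not taken as a pairing. With 12 and 13 *Lilrb4a* UMIs in CD4+ and CD8+ cells at 50 mg/kg, depth limits how finely levels there can be told apart.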
